A study of Arabidopsis thaliana with 4 samples.

Results

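The H3K4me3 regions described here were called in the leaf library and not in the callus library of Arabidopsis thaliana Col-0. They were chosen by the calls of the H3K4me3 libraries themselves: every region of the merged H3K4me3 list on chromosomes 1 to 5 whose parent calls name leaf and not callus. This gave 882 of 18483 nuclear regions (4.77%), beside 1355 regions called in callus alone and 16246 called in both tissues. A region was given to each protein-coding gene whose body, extended by 500 bp on both sides, it overlapped by at least 1 bp.

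The series holds 4 chromatin immunoprecipitation sequencing libraries, 1 for each combination of tissue (rosette leaf or callus) and antibody (anti-H3ac or anti-H3K4me3). The leaf samples are mature rosette leaves of wild-type Col-0. The callus samples are Col-0 too, and came from leaf explants of 2-week-old seedlings kept for 15 days on CIM, a callus-inducing medium. Tissue, plant age and time on the medium differ together between the groups and cannot be told apart. Both tissues hold several cell types, and a mark present in fewer cells cannot be told apart from less of the mark per cell. With 1 library per mark and tissue, every comparison below is between libraries, has no replicate check and carries no p-value.

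H3K4me3 is a histone mark that in plants lies mostly over the 5′ part of genes that are being transcribed or are poised for it, and it is laid down by SET-domain methyltransferases of the Trithorax group. H3 acetylation marks much the same gene ends and is placed and removed by other enzymes. When leaf tissue forms callus on an auxin-rich medium, the new cells arise through a programme resembling that of lateral root founders, and genes of the mature leaf are known to be turned down in that course. Genes of photosynthesis and of the leaf surface are among the best known leaf genes.

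Labels of the tissues were set against marker genes. Of 8 mature leaf markers, 3 had all of their H3K4me3 regions called in leaf alone, namely RBCS1A, RBCS3B and CAB2 (LHCB1.1), and the other 5 (LHCB2.1, LHCA1, RCA, GAPA and PSBO1) had regions called in both tissues. Of 6 callus and root stem cell markers, PLT1, PLT2, BBM, WOX11 and LBD16 had regions called in callus alone, and WOX5 had one called in both. Of the guard cell, trichome and vascular markers, only STOMAGEN (EPFL9) was called in leaf alone. It was listed with the guard cell lineage, but its peptide comes from inner leaf tissue. MUTE, GL2, SUC2 and the HD-ZIP gene HB-8 (ATHB8) were called in both. SPCH, FAMA, GL1 and the vascular regulator APL had no H3K4me3 region in either tissue.

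The calls chose the regions, so their scores and lengths are a description. Each merged region carries a score deposited by the authors, which rests for leaf-alone regions on the leaf call only. The callus library has no value at these regions other than the absence of a call, because tag numbers were listed for regions higher in callus only. Leaf-alone scores ran from 23.0 to 1286.7, with a median of 94.8 and quartiles of 42.9 and 208. The median score was 70.9 for regions called in callus alone and 478 for regions called in both. Low scores were thus common among the leaf-alone regions, and 258 of 882 (29.3%) scored under 50, against 0.917% of the regions called in both. Scores of regions called in both come from merged calls of both libraries and may not be on the scale of leaf-alone scores. At the lower edge of the list, the lowest leaf-alone scores were 23.0, 23.5 and 23.5 and the lowest scores of regions called in both were 25.4, 25.6 and 26.1. At the upper end, 65 leaf-alone regions (7.37%) reached the median score of all H3K4me3 regions, which was 446. The headers do not state the scale of the score. If it is a read number scaled to depth, as its even steps allow, the callus H3K4me3 library was 1.016 times as deep as the leaf one.

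**Figure D1:**
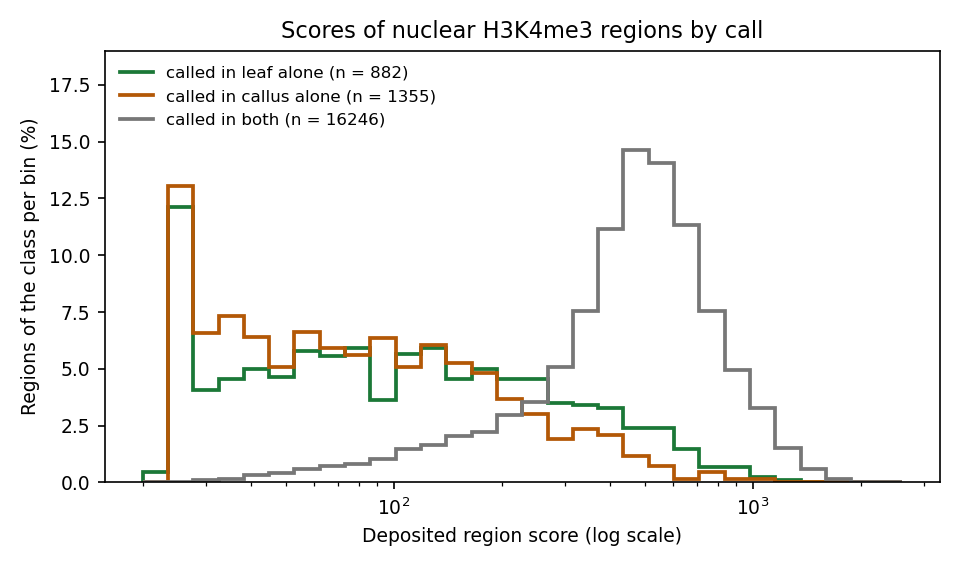
Share of regions (%, vertical axis) in each bin of the deposited H3K4me3 score (horizontal axis, log scale) for nuclear regions called in leaf alone (green), in callus alone (orange) and in both (grey). The leaf-alone regions, with a median of 94.8, spread over the lower scores and overlap the regions called in both, whose median is 478.

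The leaf-alone regions were short. Their median length was 466 bp (quartiles 240 and 851), against 379 bp for callus-alone regions and 1057 bp for regions called in both. At the shortest length in the list, 150 bp, lay 117 leaf-alone regions (13.3%), and 151 (17.1%) were 1000 bp or longer. The score per base pair had a median of 0.194 for leaf-alone, 0.188 for callus-alone and 0.439 for shared regions, so the lower scores went with lower scores per base as well as with shorter spans. All leaf-alone regions summed to 534 kb, 2.64% of the length of all H3K4me3 regions. Chromosomes 1 to 5 held 269, 123, 146, 151 and 193 of them, which is 3.94% of the regions on chromosome 3 and 5.51% on chromosome 1.

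Most leaf-alone regions lay farther than 500 bp from any callus call, though 47.4% lay within 2000 bp of one. Leaf calls merged with a callus call are left out by the choice of the regions, which in part sets these distances. The median distance to the nearest H3K4me3 region called in callus was 2142 bp and the largest 124620 bp. Only 110 regions (12.5%, exact 95% interval 10.4 to 14.8, counting error only) lay within 500 bp of one. These 110 regions had a median score of 67.8 and a median length of 381 bp, and the 772 farther regions had medians of 102 and 505 bp. Regions called in callus alone lay at similar distances from leaf calls, with 13.4% within 500 bp.

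**Figure D2:**
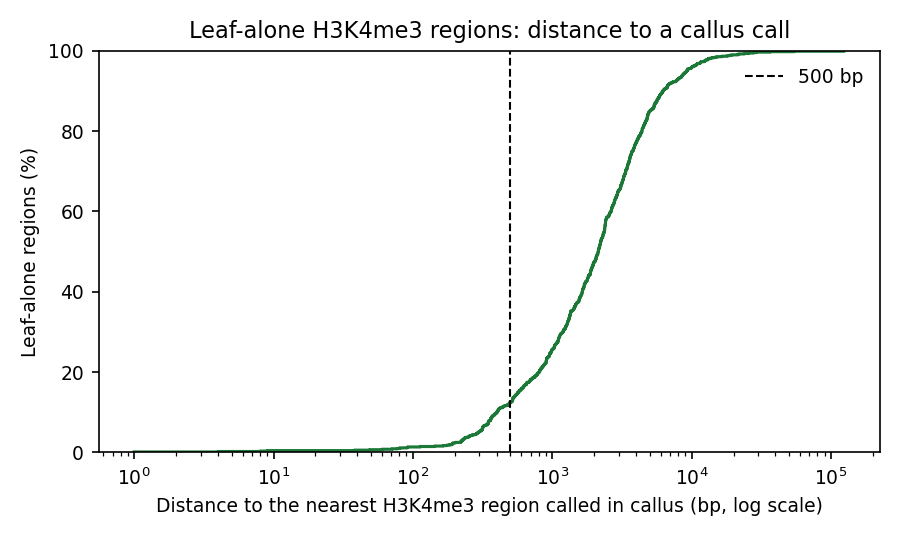
Cumulative share of the 882 leaf-alone H3K4me3 regions (%, vertical axis) by distance to the nearest H3K4me3 region called in callus (bp, log scale, horizontal axis), with a dashed line at 500 bp. The curve reaches 12.5% at 500 bp, and its midpoint lies at the median of 2142 bp.

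Nearly all leaf-alone regions lay at genes. A protein-coding gene was assigned to 833 of 882 (94.4%), and the centre of 799 (90.6%) lay inside a gene body, beside 94.2% of shared and 88.9% of callus-alone regions. Of the assigned regions, 648 went to 1 gene, 171 to 2 and 14 to 3 or more. A leaf-alone region that overlapped a gene body covered a median of 26.1% of it, against 40.7% for shared and 18.8% for callus-alone regions. Exon, intron and distance from the transcription start are not given, because the gene table used here has neither strand nor exons.

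Of 20115 protein-coding genes with an H3K4me3 region, 990 (4.92%) had at least 1 leaf-alone region. In 583 genes (2.90%) every H3K4me3 region was called in leaf alone; these are called leaf-alone genes below, and the other 407 also had a region called in callus. Genes with all regions called in callus alone numbered 803 (3.99%). The highest region score of the 583 genes had a median of 131. A leaf-alone gene had a median length of 1894 bp, beside 1818 bp for callus-alone genes and 2386 bp for the remaining genes with a region.

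Of the 10 highest-scored regions at a gene with a symbol, 5 lay at genes of the carbon fixation list. RBCS1A, which encodes a small subunit of the carbon-fixing enzyme Rubisco, had the highest, 1286.7, over 1755 bp (chr1:25047671-25049426, TAIR10, as for all positions here). ALDH11A3, for a cytosolic non-phosphorylating glyceraldehyde-3-phosphate dehydrogenase, followed with 1008.2 (chr2:10328088-10329935). The growth-promoting bHLH factor gene HBI1 had 999.0 (chr2:7952793-7954712). GAPB, for a Calvin cycle glyceraldehyde-3-phosphate dehydrogenase subunit, had 953.5 (chr1:16126994-16129257), with a callus call 413 bp away. APL1, for a large subunit of ADP-glucose pyrophosphorylase in starch synthesis and a different gene from the vascular regulator APL above, had 924.4 (chr5:6465258-6466998). The carbonic anhydrase genes CA2 and CA1, whose enzymes interconvert CO2 and bicarbonate, had 875.3 (chr5:4759017-4761306) and 854.4 (chr3:195736-198120). NPQ4, for the PsbS protein that dissipates excess light energy, had 851.8 (chr1:16871579-16873145), and the nearest callus call lay 14115 bp off. WRR4, an immune receptor gene for white rust resistance, had 836.5 (chr1:21167568-21169089), and RBCS3B, a second Rubisco small subunit gene, had 816.1 (chr5:15377134-15378551).

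The longest leaf-alone region, 2705 bp, lay at ACD6 (chr4:8294361-8297066, score 621.4), which encodes an ankyrin-repeat membrane protein of salicylate-dependent defence. CA1, CA2 and GAPB came next with 2384, 2289 and 2263 bp. MGDC, for a monogalactosyldiacylglycerol synthase that makes a membrane galactolipid, had 2134 bp (chr2:4743191-4745325, score 676.6), and the nearest callus call was 54340 bp away. These 5 regions lay far above the upper length quartile of 851 bp of the leaf-alone regions.

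**Figure D3:**
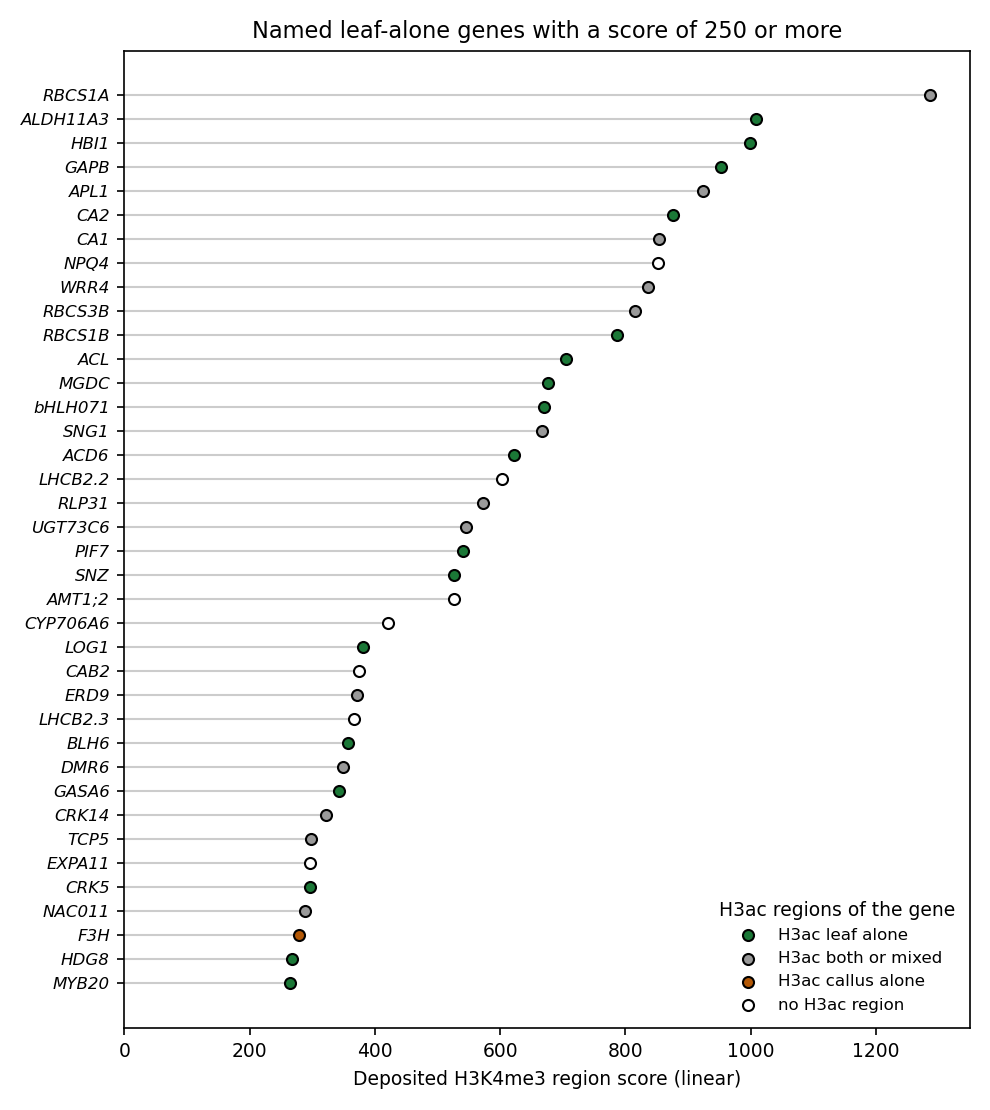
Deposited H3K4me3 score (linear, horizontal axis) of the highest leaf-alone region of the 38 leaf-alone genes with a symbol that the naming rule took and that scored 250 or more. The fill gives the H3ac regions of the gene: leaf alone for 17 genes, both or mixed for 13, callus alone for 1 (F3H) and no H3ac region for 7. The region plotted for ERD9 lies mostly in its neighbour GSTU18.

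H3ac comes from other libraries and was not used to choose the regions, so its calls are a separate readout. Of the 882 leaf-alone H3K4me3 regions, 264 (29.9%, exact 95% interval 26.9 to 33.1) overlapped H3ac regions called in leaf alone and no others, against 3.43% of all 18483 H3K4me3 regions. H3ac regions called in both tissues, or of mixed calls, lay at 186 (21.1%). H3ac called in callus alone lay at 14 (1.59%, interval 0.870 to 2.65), against 5.59% of all H3K4me3 regions. No H3ac region overlapped the other 418 (47.4%), against 11.4% of all, 55.1% of callus-alone regions and 5.77% of regions called in both. H3ac thus went the way of H3K4me3 far more often than against it, at 264 against 14 regions, and the largest class had no H3ac call in either tissue. Regions called in callus alone gave the mirror pattern, with H3ac in callus alone at 433 of 1355 (32.0%) and in leaf alone at 17 (1.25%). On the same reading of the scores, the callus H3ac library was 1.369 times as deep as the leaf one, and the part of this in the H3ac calls was not tested. Score steps were larger for H3ac (1.4001 in leaf, 1.0225 in callus) than for H3K4me3 (0.5110 and 0.5031). On that reading both H3ac libraries were shallower, so a missing H3ac call does not show that the mark was absent.

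The share of leaf-alone regions with leaf-alone H3ac was larger at higher H3K4me3 scores. It was 36 of 258 (14.0%) at scores under 50, 52 of 191 (27.2%) from 50 to 100 and 60 of 202 (29.7%) from 100 to 200. It was 46.3% (68 regions) from 200 to 400 and 48 of 84 (57.1%) at 400 and over. The share with no H3ac region was 69.0% in the lowest bin and 17.9% in the highest. It was 70.5% and 6.12% for callus-alone regions in these bins, and 56.4% and 0.162% for regions called in both. Neither trend with score was particular to leaf: callus-alone regions had callus-alone H3ac at 16.3% at scores under 50 and at 77.6% at 400 and over. Among regions called in both, leaf-alone H3ac lay at 6.04% at scores under 50, 10.1% from 50 to 100 and 7.75% from 100 to 200. It lay at 150 of 3747 from 200 to 400 and at 0.380% at 400 and over. Scores of regions called in both come from merged calls of both libraries and may not be on the scale of leaf-alone scores. Of 20185 nuclear H3ac regions, 1643 (8.14%) were called in leaf alone. Of these 1643, 281 (17.1%) overlapped a leaf-alone H3K4me3 region, against 481 (2.38%) of all H3ac regions. In turn, 269 of the 882 leaf-alone H3K4me3 regions (30.5%) overlapped an H3ac region called in leaf alone.

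**Figure D4:**
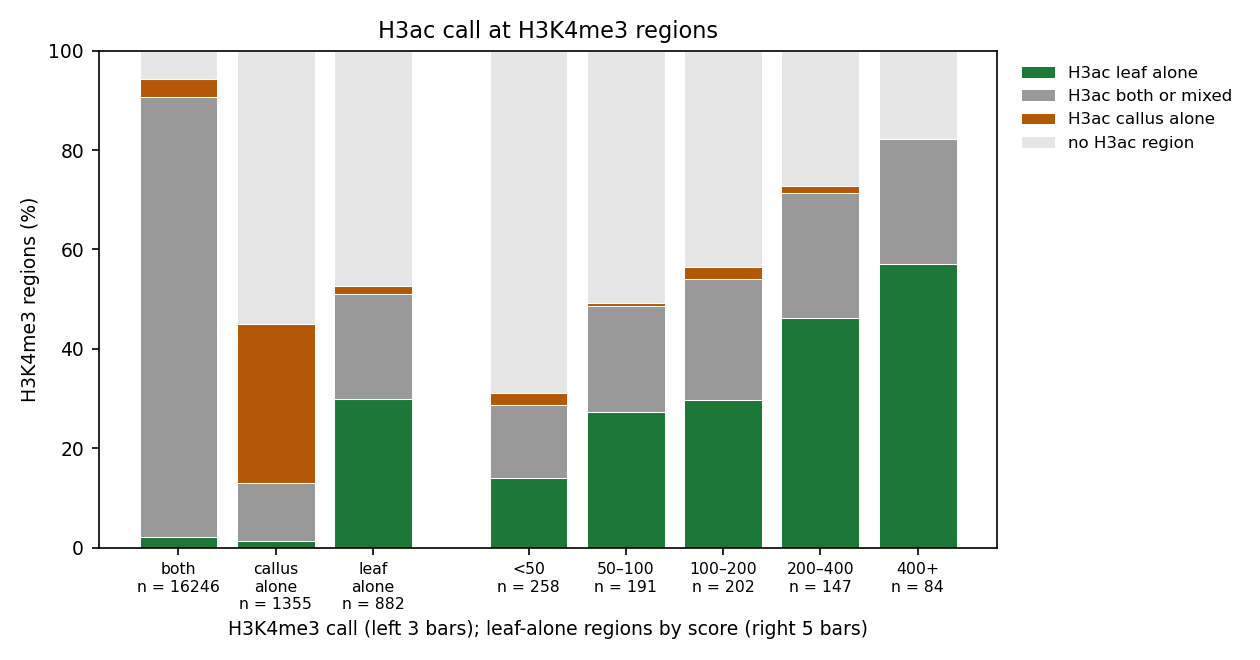
H3ac calls at H3K4me3 regions as stacked shares (%, vertical axis), for regions called in both, in callus alone and in leaf alone (left bars) and for the leaf-alone regions by deposited score (right bars), with the number of regions under each bar. Leaf-alone H3ac (green) makes up 29.9% of the leaf-alone regions, from 14.0% at scores under 50 to 57.1% at 400 and over.

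Over genes the counts were alike. Of the 583 leaf-alone genes, 175 (30.0%) had all of their H3ac regions called in leaf alone, against 2.49% of the genes with an H3K4me3 region. Another 138 (23.7%) had H3ac in both tissues or mixed, 14 in callus alone, and 256 (43.9%) had no H3ac region. Callus-alone genes had no H3ac region at 50.6%, and the remaining genes with an H3K4me3 region at 5.01%. The lack of an H3ac region was thus not particular to leaf-alone genes. H3ac in both tissues or mixed lay at 10.6% of callus-alone genes and 90.5% of the remaining genes. The highest H3K4me3 scores among the 175 genes were those of ALDH11A3, HBI1, GAPB and CA2. RBCS1B, a Rubisco small subunit gene, followed with 786.4 (chr5:15383278-15385310). The neighbours AT1G66930 and AT1G66940 shared a region scored 744.5, which overlapped the body of the latter and lay 63 bp from the former. ACL, for an enzyme of the methylesterase family, had 704.7, MGDC 676.6 and the bHLH factor gene bHLH071 669.9. Of the 10 highest-scored genes, RBCS1A, APL1, CA1, WRR4 and RBCS3B instead had H3ac called in both tissues or mixed, and NPQ4 had none.

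The marks went opposite ways at a small number of genes. None of the 882 regions was in the authors' list of H3K4me3 regions higher in callus, which held 977 of the callus-alone regions. That follows largely from the choice of the regions, because the list and the calls rest on the same H3K4me3 libraries. In 16 leaf-alone genes the H3ac regions were called in callus alone or 1 was listed as higher in callus. The listed ones were 6 genes (1.03%), against 6.00% of genes with an H3K4me3 region. H3ac was called in callus alone at 14 of the 583 leaf-alone genes, against 37.1% of callus-alone genes. Among the remaining genes with an H3K4me3 region it was 2.78%, a share near that of the leaf-alone genes. These 14 genes are therefore no result about leaf-alone genes. The highest H3K4me3 scores of the 16 belonged to F3H (flavanone 3-hydroxylase, 278.0), AT5G15950 (256.5), KCS8 (a fatty acid elongase gene, 165.1), ALF5 (a MATE transporter gene, 157.4) and AT3G54400 (154.3). BBX30, a small B-box protein gene, had the largest H3ac fold of the 6, 5.66 in the authors' deposited table, where it rested on 22.6 tags in callus, after scaling, and 4.0 in leaf. The other 5, MYB62, ALF5, CRK23, BRS1 and AT5G15950, had folds of 2.4 to 2.77 in the authors' deposited table. In all 6 genes the listed H3ac region did not overlap the leaf-alone H3K4me3 region. Over all 882 leaf-alone regions, 3 did overlap an H3ac region listed as higher in callus. At AT5G15950 the leaf-alone H3K4me3 region itself (chr5:5205849-5207179) also overlapped H3ac called in callus alone, in a region that was not the listed one.

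Of 43 lists of genes by pathway or family, 8 held no leaf-alone gene, and 145 of the 583 leaf-alone genes were on a list. The share of leaf-alone genes among list genes with an H3K4me3 region is read beside the 2.90% over all genes and the 3.31% over genes with a symbol of their own (280 of 8466). The share lay above 2.90% in 32 of the 43 lists, and in 11 of them the lower bound of its exact 95% interval did so too. Those 11 were the carbon fixation, light-harvesting, cuticle, stomata and trichome, phenylpropanoid, SAUR, expansin, MYB, homeobox, peptide hormone and receptor-like kinase lists. The intervals of all other lists, also of those without a leaf-alone gene, held 2.90%. These intervals take genes as independent, which tandem copies are not, and a share close to the background is no result about a list. H3ac counts within a list are read beside all 583 leaf-alone genes: 30.0% had H3ac in leaf alone and 43.9% had no H3ac region. On so few genes they are no result about a list. Counts of callus-alone genes on a list are read beside the 3.99% over all genes with a region.

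**Figure D5:**
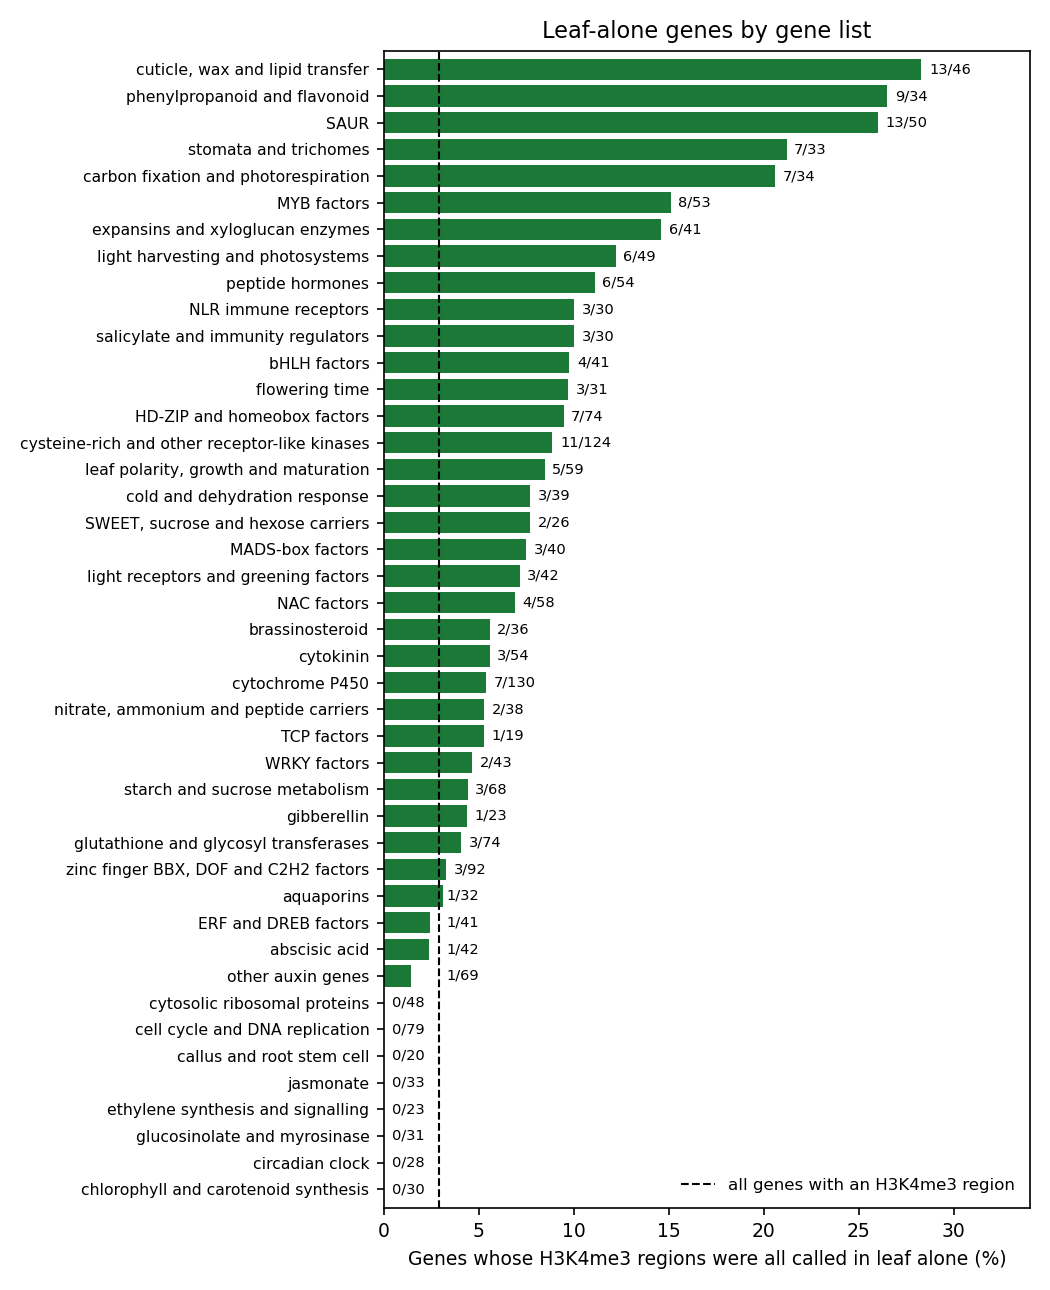
Share of genes (%, horizontal axis) whose H3K4me3 regions were all called in leaf alone, for each list of genes, with the number of leaf-alone genes and of list genes with a region beside each bar. The dashed line marks the 2.90% of all genes with a region, and the cuticle list lies farthest to the right with 13 of 46.

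On the list of carbon fixation and photorespiration, 7 of 34 genes with a region (20.6%) were leaf-alone genes. Their median score, 854, was the highest of the lists, beside 371 for the light-harvesting list below. They were the Rubisco small subunit genes RBCS1A, RBCS3B, RBCS1B and RBCS2B (626.5), GAPB, and the carbonic anhydrase genes CA1 and CA2. All 4 Rubisco small subunit genes were thus leaf-alone genes, and 3 of them lie side by side on chromosome 5. Their H3ac calls differed: both tissues at RBCS1A and RBCS3B, leaf alone at RBCS1B, and none at RBCS2B. Reads can be shared between the near-identical copies of this family, and the values of its single members are uncertain.

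Among light-harvesting and photosystem genes, 6 of 49 (12.2%) were leaf-alone genes. Apart from NPQ4, all encode chlorophyll-binding proteins of the main photosystem II antenna: LHCB2.2 (603.0, chr2:1798675-1800489), CAB2 (374.6), LHCB2.3 (366.9), CAB3 (285.6) and LHB1B1 (274.4). None of these 6 genes had an H3ac region in either tissue, and 43.9% of all leaf-alone genes had none either. Their close relatives CAB1 (459.2), LHB1B2 (412.1) and LHCB2.1 (466.4) had H3K4me3 called in both tissues. The scores of these relatives come from merged calls and may not be on the scale of leaf-alone scores. Antenna genes thus fell on both sides of the call. These too are near-identical copies that can share reads. No leaf-alone gene was found among 30 genes of chlorophyll and carotenoid synthesis or 28 circadian clock genes. Their exact intervals, up to 11.6% and 12.3%, hold the 2.90% over all genes. The greening regulator genes GLK1 (742.6) and GLK2 (1028.0) and the clock genes LHY (529.3) and CCA1 (395.1) had regions called in both tissues.

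The largest share was that of genes for the cuticle, wax and lipid transfer, 13 of 46 (28.3%), at moderate scores with a median of 135. ATML1 (200.3, chr4:11556091-11556990) and PDF2 (139.5) encode the related HD-ZIP factors that specify epidermal cell fate. LTPG2 (189.1), LTPG1 (117.5), LP1 (134.9) and LTP5 (120.6) encode lipid transfer proteins, of which LTPG1 and LTPG2 are anchored to the membrane. KCS16 (167.6), KCS8 (165.1) and KCS5 (34.7) encode enzymes that elongate very long fatty acids. GPAT8 (147.2), GPAT6 (85.8) and LACS2 (87.9) act in cutin synthesis and CER2 (62.3) in wax synthesis. H3ac was called in leaf alone at 7 of the 13, beside 30.0% of all leaf-alone genes. It was called in callus alone at KCS8 and LACS2, in both or mixed at 1 and not at all at 3. No gene of this list had its H3K4me3 regions called in callus alone, beside 3.99% of all genes with a region. Several other lists, such as light harvesting and carbon fixation, had no such gene either, so this is no result about cuticle genes.

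Epidermal cell patterning genes were also among them. The list of stomatal and trichome genes had 7 of 33 (21.2%). STOMAGEN, for a peptide from inner leaf tissue that raises the number of stomata, had 233.0 (chr4:7586117-7586901), and its H3ac was called in leaf alone as well. ERL1, for a receptor kinase of stomatal spacing, had 67.5. TCL2 (199.3), TRY (130.3), CPL3 (ETC3, AT4G01060, 116.5) and ETC2 (50.6) encode small R3 MYB proteins that hold back trichome formation, while their relative CPC (315.1) was called in both tissues. GIS (196.7) encodes a zinc finger protein that promotes trichomes. Inhibitors and a promoter of trichome formation were thus both among the leaf-alone genes.

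Genes of phenylpropanoid and flavonoid synthesis had 9 of 34 (26.5%). SNG1, for the enzyme that makes the leaf sunscreen sinapoylmalate, led with 666.9 (chr2:9786293-9788025). The flavonoid enzymes followed: F3H (278.0), the chalcone synthase gene TT4 (229.4) and LDOX (91.0). The 4-coumarate-CoA ligase gene 4CL3 had 215.6 and the cinnamoyl-CoA reductase gene CCR2 48.0. MYB90 (114.5), PAP1 (MYB75, 32.2) and MYB12 (24.5) encode MYB activators of anthocyanin or flavonol synthesis, and PAP1 and MYB12 lay near the lowest score in the list. None of the 9 had H3ac in leaf alone, beside 30.0% of all leaf-alone genes, and 9 genes are too few to set these shares apart. H3ac was not called at 5, was called in both or mixed at 3 and in callus alone at F3H.

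SAUR genes, which are induced early by auxin and promote cell expansion, had 13 of 50 (26.0%), and another 6 were callus-alone genes. AT4G38860 had the highest score, 478.3 (chr4:18130097-18131422), and next came AT5G18030 (208.0), AT1G29430 (155.9) and AT1G29450 (108.8). The median over the 13 was 74.6, and 10 of them had no H3ac region, beside 43.9% of all leaf-alone genes. SAUR genes lie in tandem arrays of close copies, which can share reads, and AT1G29430, SAUR63 and AT1G29450 are neighbours. Of 69 other auxin genes 1 (1.45%) was a leaf-alone gene, and the exact interval, 0.0367 to 7.81%, holds the 2.90% over all genes. Cell wall genes of the expansin and xyloglucan families had 6 of 41 (14.6%) and 5 callus-alone genes, the former led by EXPA11 (296.9) and XTH6 (230.5), which loosen or remodel the wall.

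Among transcription factors, MYB genes had 8 of 53 (15.1%) and 6 callus-alone genes, the former led by the secondary wall regulator MYB20 (263.7) and MYB48 (139.5). The bHLH list had 4 of 41 (9.76%): HBI1, bHLH071, the shade-response factor gene PIF7 (540.6, chr5:24639040-24640641) and PRE1 (131.8). H3ac was called in leaf alone at 3 of these 4, beside 30.0% of all leaf-alone genes. Homeobox genes had 7 of 74 (9.46%), among them BLH6 (357.2), HDG8 (267.3) and HB31 (226.9) in addition to ATML1, beside 10 callus-alone genes. Leaf growth and polarity genes had 5 of 59 (8.47%): TCP5 (297.9), which restrains leaf margin growth, the YABBY genes AFO (FIL or YAB1, 185.5) and YAB5 (142.1) of the lower leaf side, and the growth regulator genes GRF5 (71.5) and GRF6 (54.7). The YABBY genes YAB2 (109.3) and YAB3 (429.1) were called in both tissues. The flowering genes SNZ (526.3), a repressor of the AP2 family, SPL3 (150.7) and AGL24 (131.3) made up 3 of 31 (9.68%), while FLC (106.9) was called in both and FT had no region. WRKY genes had 2 of 43 (4.65%), WRKY30 and WRKY43, both through a region outside the gene body, and 0 of 40 when the body alone was used. For the bHLH, leaf growth, flowering and WRKY lists the exact interval also held the 2.90% over all genes.

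Defence and surface receptor genes had shares of 8.87 to 10.0%. Of 124 receptor-like kinase and receptor-like protein genes, 11 (8.87%) were leaf-alone genes, led by RLP31 (572.3), CRK14 (322.4), CRK5 (296.9) and CRK41 (229.9). With any leaf-alone region counted, the number was 20 (16.1%), against 4.92% of all genes with a region. Intracellular immune receptors had 3 of 30, WRR4, AT1G17610 (364.9, a region that AT1G17600 overlaps too) and RLM1 (27.6). Salicylate genes had 3 of 30: DMR6 (348.5), whose enzyme hydroxylates salicylate, the isochorismate synthase gene ICS2 (108.8) and NIMIN1 (78.7). With 3 of 30, the exact interval, which reaches up to 26.5%, also holds the 2.90% over all genes. Jasmonate genes (33 with a region), ethylene genes (23) and glucosinolate genes (31) held no leaf-alone gene. At these list sizes the interval of a count of 0 holds 2.90% as well. The glucosinolate regulator gene MYB28 (147.5) was called in both tissues, and the myrosinase gene TGG1 had no region.

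Peptide hormone genes, which the title of the series names, had 6 leaf-alone genes of 54 with a region (11.1%) and 14 callus-alone genes. After STOMAGEN came RGF9 (156.4), of the root meristem growth factor family, the CLE peptide genes CLE21 (110.4) and CLE9 (50.6), RTFL6 (77.7) and IDL3 (25.5). H3ac was called in leaf alone at 2 of the 6 and was not called at 4, beside 30.0% and 43.9% of all leaf-alone genes. Among cytokinin genes, 3 of 54 (5.56%) were leaf-alone genes: LOG1 (380.2) and LOG7 (152.8), whose enzymes release active cytokinin, and the synthesis gene IPT3 (145.1), while LOG4 (96.1) was called in callus alone. Cold-response genes had 3 of 39 (7.69%), the glutathione transferase gene ERD9 (213.6, chr1:3397259-3398192) and the neighbouring chloroplast protein genes COR15A (199.8) and COR15B (121.1). Callus and root stem cell genes had 0 of 20, with 9 called in callus alone. Cell cycle and DNA replication genes had 0 of 79 and cytosolic ribosomal protein genes 0 of 48, and a count of 0 does not show that the mark was equal in both tissues.

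Carrier, storage and detoxification genes had smaller shares. The ammonium transporter gene AMT1;2 had a score of 525.8 (chr1:24061158-24062599) without an H3ac region, and with AT1G68570 (194.2) it made up 2 of 38 nitrate, ammonium and peptide carrier genes (5.26%), beside 6 callus-alone genes. Of 68 starch and sucrose genes 3 (4.41%) were leaf-alone genes, APL1 and the trehalose phosphate phosphatase genes TPPE (206.4) and TPPF (32.2). Sugar carriers had 2 of 26 (7.69%), the hexose carrier gene STP11 (131.3) and the vacuolar carrier gene SWEET16 (64.4), both with H3ac in leaf alone. Cytochrome P450 genes had 7 of 130 (5.38%) with a median score of 42.9, and another 12 were callus-alone genes. The glycosyltransferase gene UGT73C6, whose enzyme acts on flavonols, had 545.2 (chr2:15420379-15421909), among 3 of 74 transferase genes (4.05%), of which 7 were callus-alone genes. The gibberellin-regulated gene GASA6 had 341.9. Its only H3ac region, called in leaf alone with a score of 33.6, did not overlap the H3K4me3 region. NAC factor genes had 4 of 58 (6.90%) and 5 callus-alone genes, the former led by NAC011 (288.7), whose region lay outside the gene body. These shares lay nearer to the 2.90% over all genes than those of the cuticle, SAUR or carbon fixation lists.

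Leaf-alone genes were in part neighbours. Taking genes next to each other in the gene table, 151 of the 583 stood in 68 runs. The same count was not made for other genes with a region, so it does not show that leaf-alone genes cluster more. Part of it follows from giving a region to every gene within 500 bp. In 29 runs the genes shared 1 region, and in 39 runs with 91 genes at least 2 separate regions were present. Runs with 3 or more regions numbered 9. They included the Rubisco genes RBCS3B, RBCS2B and RBCS1B, the trichome genes ETC2 and TCL2 with AT2G30430, the acyltransferase-family genes SCPL13, SNG1 and scpl10, and the kinase genes CIPK19 and CIPK20 with the seed dormancy gene DOG1. Pairs of related neighbours included CAB3 with CAB2, COR15B with COR15A, and the cytochrome P450 genes CYP706A6 (421.1) and CYP706A7 (93.5). Members of such a run share a place in the genome and are not independent of each other.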

How the data were processed

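H3ac and H3K4me3 chromatin immunoprecipitation libraries of leaf and callus were sequenced, 1 per mark and tissue. Named in the submitters' processing notes, without roles, are HOMER 4.10.4, SAMtools 1.11, Bowtie2 2.3.4.3 and the TAIR10 build. Per the file headers, the authors called regions in each library and merged them with HOMER mergePeaks. The headers do not give the scale of the score that the authors deposited for each region. It moves in even steps: 99.8% of leaf-alone H3K4me3 scores were whole multiples of 0.5110 within 0.05, and the depth ratios rest on reading a step as a fixed number of reads. Depth totals of the libraries are unknown here. The number of merged calls per region is a count that the authors deposited and was used only to read the files. Per the file headers, the authors compared callus with leaf by tag signal in 147 bp at each region's centre and deposited the fold for regions at least 2-fold higher in callus. No input library enters the tables.

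Overlaps, distances, counts and shares were computed here with Python 3.11.15, pandas 2.3.3, NumPy 2.4.6 and SciPy 1.17.1, after a check of the overlap and distance code on simulated regions, and figures with matplotlib 3.10.9. Intervals are exact (Clopper-Pearson, 95%) and cover counting error only. Overlap was at least 1 bp. Genes are the 27432 nuclear protein-coding genes of a RefSeq table of assembly TAIR10.1, used for names and overlap; printed positions are those of the deposited TAIR10 regions. The centre of regions called in both fell in a gene body for 94.2% of regions, against 64.6 to 67.8% after shifts of up to 4000 bp, and unshifted positions were highest in 58 of 58 bins.

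The regions, gene lists and markers were chosen with earlier results of these data known. The naming rule took the 10 highest-scored regions at a gene with a symbol, the 5 longest, up to 4 leaf-alone genes of each list, the 10 highest-scored genes with both marks leaf alone, the 5 highest with opposite H3ac, and 12 fixed genes. Further list members, family members and runs were named after their values were seen. List matching by synonym was corrected after seeing values, and 6 matches were removed. The planned motif and start-site descriptions were not run.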

Additional observations from a re-analysis of the deposited data

Results flagged for a closer look

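Outside the nuclear chromosomes, 72 H3K4me3 regions on the plastid genome were called in leaf alone, of 81 plastid regions in the list (88.9%). Another 8 were called in both tissues and 1 in callus alone. The 72 regions scored between 24.5 and 226, with a median of 56.8. They drew attention because plastid DNA carries no histones and these regions were not used in any comparison above. Whether the plastid calls bear on the nuclear leaf-alone calls was not tested.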

How the results depend on the processing

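The counts follow the definitions used. The share of H3K4me3 regions called in leaf alone (4.77%) was 0.703% among regions at or above the median score, 4.18% when regions within 500 bp of a callus call were left out, and 5.14% with organelles included. The share of leaf-alone genes (2.90%) was 3.52% with the gene body alone, 2.48% with 1000 bp on both sides, 3.91% when a region went only to the gene of largest overlap, and 0.559% at or above the median score. The share of leaf-alone regions near a callus call (12.5% within 500 bp) was 25.6% within 1000 bp and 1.59% within the width in which the authors counted tags. Leaf-alone H3ac (29.9%) was 56.9% at or above the median score, at 37 of 65 regions, and was 29.1% with an overlap of at least 50% of the shorter region. Without regions near a callus call, the median length was 505 bp, the median score 102 and the share with the centre in a gene 90.8%. Leaf-alone genes on any list numbered 164 with the gene body alone and 202 with any leaf-alone region counted. Of the 35 lists with a leaf-alone gene, 5 had a share over 1.5 times higher with the gene body alone (flowering 16.1%, cytokinin 9.80%, sugar carriers 13.0%, cytochrome P450 8.93%, transferases 7.35%) and 1, WRKY, fell to 0, while the share over all genes went from 2.90 to 3.52%. With any leaf-alone region counted, 10 lists were over 1.5 times higher, among them receptor genes (16.1%), homeobox (14.9%), gibberellin (13.0%), cytochrome P450 (10.0%), transferases (9.46%) and zinc finger genes (6.52%), as the share over all genes went to 4.92%. No paired analysis was possible because each mark and tissue has 1 library, and for the same reason no replicate could be left out. The motif alternative was not run. Calls depend on read depth, and a region not called in callus may still carry reads there.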

Other observations

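The 49 leaf-alone regions without a protein-coding gene lay at other annotated features or at none. A long noncoding RNA gene lay at 14, a pseudogene at 10 and a transcribed pseudogene at 6, and 9 had no annotated gene. Their scores were mostly low, and the highest, 425.1, belonged to the pseudogene AT3G28160 (chr3:10494824-10495875). The microRNA genes MIR167d (chr1:11137492-11138013) and MIR171c (chr1:22930099-22930322) each had a leaf-alone region with no H3ac region.

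Leaf-alone genes outside the lists numbered 438. The following were chosen after their values were seen. FRO6, for a ferric chelate reductase of leaves, had an H3K4me3 score of 638.2. The chloroplast NDH complex genes PnsB2 (655.6) and NdhT (449.2) had H3ac in both tissues or mixed, and CRR1 (488.0), needed to build that complex, had H3ac in leaf alone. The fructose-bisphosphate aldolase genes FBA7 (592.2) and FBA5 (399.6) are neighbours, with H3ac in leaf alone at the first and none at the second. RbcX1, for a chaperone of Rubisco assembly, had 444.6, and the asparagine synthetase gene ASN1 had 369.5, both with H3ac in leaf alone.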
